A study of Homo sapiens with 4 samples.

Results

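Malignant glial cells are commonly described by markers of 3 kinds, and 10 such genes were followed here in U87MG cells, an established human glioblastoma line. NES, SOX4, SOX9 and PDGFRA are used as markers of neural stem or progenitor-like cells, GFAP, GJA1 and GLUL as markers of astrocytes, and CD44, VIM and CHI3L1 as markers of the mesenchymal state of glioma. The genes were chosen by symbol. Every probe set that the platform's table gives to 1 of the 10 and to no other gene was taken, which gave 46 of the 44988 probe sets with a single symbol, for 10 of 18132 genes. The cells were kept for 24 h with 10 µM mycophenolic acid (MPA) together with 100 µM guanosine, with 10 µM MPA, with 100 µM guanosine, or with DMSO, the vehicle and control. All 4 cultures were of this single line grown with serum, and the comparisons ask how blocking IMP dehydrogenase, the target of MPA, and supplying guanosine, which can be salvaged into guanine nucleotides, bear on the transcripts. Each condition was read on 1 array, so a difference below is between 2 cultures, carries no error estimate and was not tested.

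These genes have different jobs in a glial cell. NES, VIM and GFAP encode intermediate filament proteins, of which nestin is typical of neural stem cells, GFAP of mature and reactive astrocytes, and vimentin of immature glia and mesenchymal cells. SOX4 and SOX9 are transcription factors of the HMG-box family that act in neural progenitors and gliogenesis, and PDGFRA is the receptor for platelet-derived growth factor on glial progenitors. GJA1 encodes connexin 43, the main gap junction protein of astrocytes, and GLUL encodes glutamine synthetase, which joins ammonia to glutamate. CD44 is a cell surface receptor for hyaluronan with many splice forms, and CHI3L1 encodes the secreted chitinase-like protein YKL-40.

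The promoters of 3 of the 4 genes that differed by at least 1.5-fold between the MPA and control arrays are shown, 2 that were higher with MPA (GLUL and CHI3L1) and 1 that was lower (NES). The sequences are from RefSeq on GRCh38.p14, run from 250 bases before to 50 bases after the transcript start, and are given in the direction of transcription. The table held 8 of the 10 genes, all but SOX9 and GFAP. Capitals mark matches on either strand to the TATA box (TATAAA), the GC box (GGGCGG) or the CCAAT box.
GLUL, chr1:182391741-182392040, minus strand: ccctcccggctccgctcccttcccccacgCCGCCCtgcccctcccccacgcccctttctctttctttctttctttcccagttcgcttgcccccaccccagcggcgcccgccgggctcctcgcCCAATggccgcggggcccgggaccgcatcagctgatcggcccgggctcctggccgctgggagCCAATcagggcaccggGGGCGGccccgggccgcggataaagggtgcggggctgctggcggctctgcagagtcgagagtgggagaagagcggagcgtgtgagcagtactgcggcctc
CHI3L1, chr1:203186655-203186954, minus strand: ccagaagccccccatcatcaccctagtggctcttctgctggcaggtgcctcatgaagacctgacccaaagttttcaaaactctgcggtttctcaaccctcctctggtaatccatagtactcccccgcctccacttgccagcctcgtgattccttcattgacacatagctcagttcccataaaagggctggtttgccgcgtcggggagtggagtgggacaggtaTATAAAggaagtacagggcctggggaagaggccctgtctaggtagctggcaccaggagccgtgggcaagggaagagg
NES, chr1:156677358-156677657, minus strand: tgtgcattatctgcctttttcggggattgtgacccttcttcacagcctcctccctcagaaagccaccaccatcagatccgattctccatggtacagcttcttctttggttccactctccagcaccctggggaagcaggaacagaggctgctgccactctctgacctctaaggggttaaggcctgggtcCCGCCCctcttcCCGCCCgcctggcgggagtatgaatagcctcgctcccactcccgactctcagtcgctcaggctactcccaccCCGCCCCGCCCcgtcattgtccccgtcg
The CHI3L1 window holds TATAAA at -27 to -22, counted from the start site, a motif found in 11.5% of 35116 promoters of this length. The NES window holds the GC box on the reverse strand at 4 places, 2 of which overlap by a base, and the GLUL window holds the GC box and the CCAAT box at 2 places each. The GC box was found in 45% of all promoters and the CCAAT box in 34.6%. The E-box CACGTG and the p53 half-site were also searched on both strands and matched 0 of the member promoters, against 7.26% and 6.63% of all promoters. A second GLUL start, whose window is chr1:182391292-182391591, is listed in the table and is not printed. GC content was 72.7% in the GLUL window, 56% in that of CHI3L1 and 60.3% in that of NES, with a median of 58.7% over all promoters. These letters describe the windows, and the arrays give no reading of what binds there.

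Signal was compared only above a floor. The floor was the median of all non-control values, a signal of 63. Of the 46 probe sets, 29 lay at or above the floor on all 4 arrays and 17 lay below it on all 4, and every gene kept at least 1 probe set. Differences are of log2 signal, and a difference was counted when it reached 1.5-fold. A gene is represented by its brightest probe set, those with the suffix _x_at being used only where there is no other. Signals of different probe sets are not comparable as amounts of RNA. Probe sets above the floor were 10 of 10 for CD44, 2 of 2 for VIM and 1 of 1 for CHI3L1. They were 3 of 5 for GLUL, 2 of 4 for GJA1 and 3 of 8 for GFAP among the astrocyte markers, and 5 of 7 for SOX4, 1 of 2 for NES, 1 of 3 for SOX9 and 1 of 4 for PDGFRA among the progenitor markers. Further genes of the same 3 kinds show how far the labels apply to this line. Of the measured genes in each list, 32 of 33 mesenchymal, 9 of 25 neural stem or proneural and 8 of 18 astrocyte genes were at or above the floor on all 4 arrays. The share of all genes that did so was not counted. On at least 1 array the counts were 32 of 33, 13 of 25 and 9 of 18. Of all 18132 genes, 11009 besides the 10 markers reached the floor on at least 1 array. Listed genes above the floor on all 4 include the notch receptor gene NOTCH2 (1048 to 1200) and the astrocyte genes CLU (1857 to 2645), NFIB (423 to 568) and SLC1A3 (225 to 235). Those below it on every array include SOX2 (37 to 53.6), PROM1 (18.1 to 22.2), S100B (35.7 to 41.5) and AQP4 (18.9 to 25.5).

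**Figure D1:**
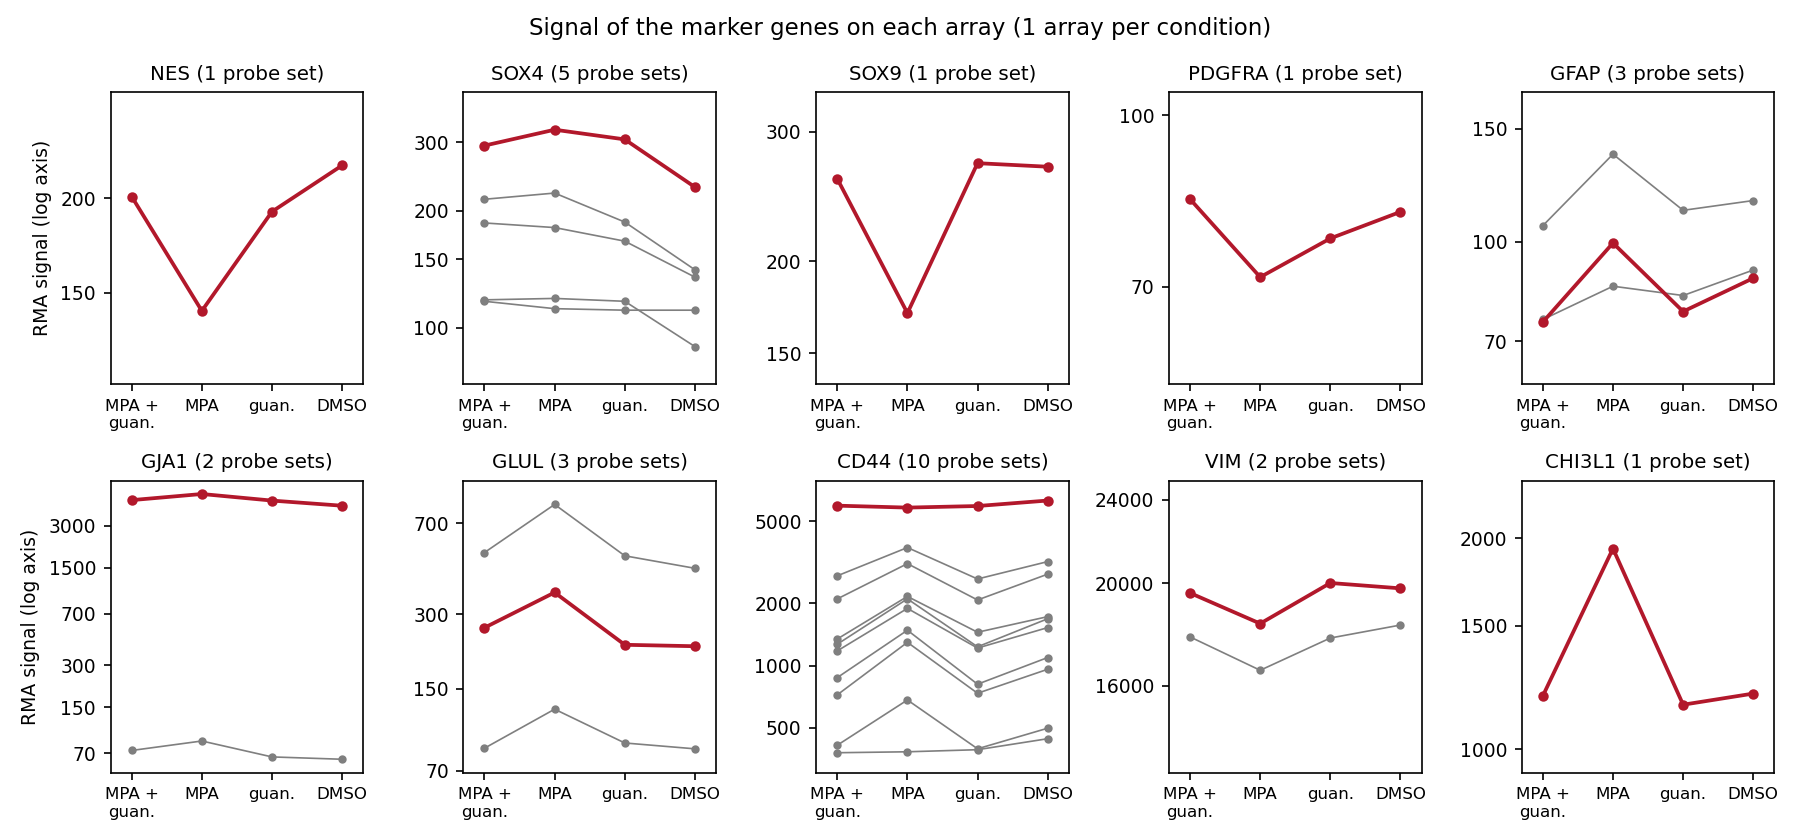
RMA signal of the 29 probe sets above the floor on the arrays of MPA with guanosine, MPA, guanosine (guan.) and DMSO control, 1 array each, with a separate log axis for each gene; the red line is the probe set that represents the gene and grey lines are its others. GLUL and CHI3L1 peak on the MPA array, NES and SOX9 are lowest there, SOX4 is lowest in the control, and the brightest CD44 probe set is flat while 8 of the others peak with MPA.

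MPA against control asks how the markers stood after IMP dehydrogenase was blocked. Of the 10 genes, 4 differed by at least 1.5-fold, GLUL and CHI3L1 being higher and NES and SOX9 lower, and 0 differed by 2-fold, as 3.15% of all genes did. Among all 10951 genes compared, those that reached the floor on 1 or both of the arrays compared, 12.9% differed by at least 1.5-fold, 5.41% higher and 7.52% lower. By probe set the count was 6 of 29, against 12.2% of 23675, with 4 higher and 2 lower, against 4.67% and 7.58%. A probe set of these genes was higher with MPA by any amount in 21 of 29 cases, against 48.2%, and 8 of the 21 belong to CD44. The MPA array was the highest or the lowest of the 4 in 25 of 29 marker probe sets and in 81.4% of all. The median over the 10 genes was 0.04, with 5 higher and 5 lower where 50.3% of genes were higher, and the median over all genes was 0.00236. The middle 95% of genes lay between -0.88 and 0.85, a range that holds all 10 markers. With a gene's probe sets replaced by their median value, 6 genes were above the floor and 1 of them, CHI3L1, passed 1.5-fold. In RNA of a whole culture, fewer cells of a type and less RNA per cell cannot be told apart.

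**Figure D2:**
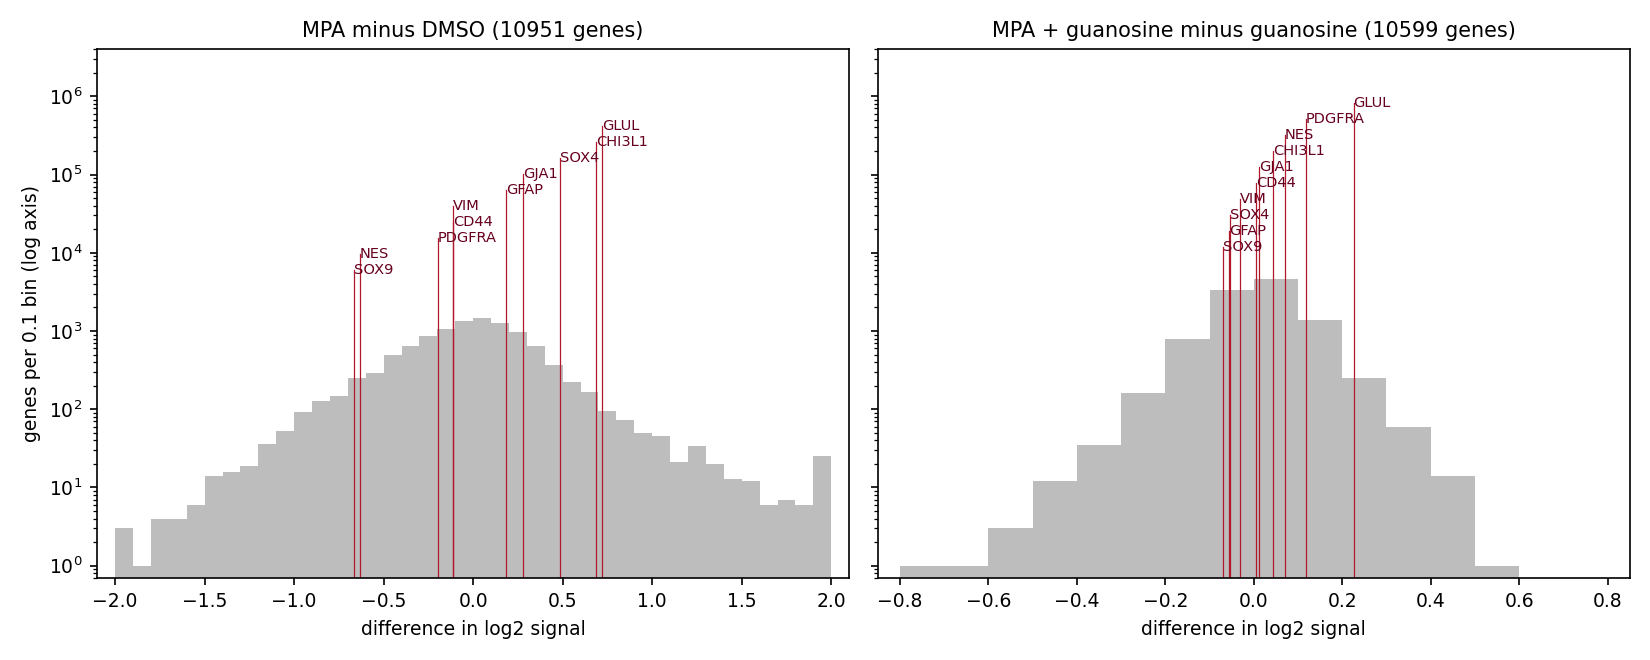
Number of genes per bin of 0.1 in log2 difference (log axis) for MPA against control on the left and for MPA with guanosine against guanosine on the right, with the 10 markers as red lines whose heights have no meaning; values beyond 2 in size are in the end bins, and the horizontal scales differ. With MPA alone the markers run from -0.66 for SOX9 to 0.72 for GLUL, and with guanosine present from -0.07 to 0.23.

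Among the progenitor markers, NES had a signal of 201 with MPA and guanosine, 142 with MPA, 192 with guanosine and 221 in the control. The MPA array was the lowest of the 4, at a log2 difference from control of -0.63, and 680 of 10951 genes were lower still. The other NES probe set, below the floor throughout, differed by -0.21. Because the control array was the highest for NES, the difference was smaller against the guanosine array, at -0.43, which is under 1.5-fold. Adding guanosine to MPA gave a NES signal higher by 0.50 than MPA alone.

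SOX9 had a signal of 259 with MPA and guanosine, 170 with MPA, 272 with guanosine and 269 in the control. The MPA array alone was low and the other 3 lay close together. The log2 difference was -0.66 against the control and -0.68 against the guanosine array. A dimmer SOX9 probe set, at 25.1 with MPA and 35.9 in the control, differed by -0.52, and the dimmest by -0.06; both were below the floor. SOX9 was the only marker gene at least 1.5-fold higher with MPA and guanosine than with MPA alone, at 0.61, which became 0.53, under 1.5-fold, after cyclic loess.

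SOX4 followed another order. Its main probe set read 294 with MPA and guanosine, 323 with MPA, 305 with guanosine and 230 in the control, so that all 3 treated arrays were above the control and near each other. The log2 difference from control was 0.35 with both, 0.49 with MPA and 0.41 with guanosine, and the MPA array differed from the guanosine array by 0.08. The control was the lowest array in 4 of the 5 SOX4 probe sets above the floor, an order seen in 21.5% of 23970 probe sets. Probe set 11719561_s_at passed 1.5-fold with MPA (0.65) and with both compounds (0.60), at signals of 214 with both, 222 with MPA, 187 with guanosine and 141 in the control. The fifth, 11719559_at, differed from control by 0.01 with MPA and stayed between 111 and 117 on all arrays. These SOX4 differences share the single control array and cannot be told apart from a deviation of that array.

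PDGFRA was close to the floor, with a signal of 84 with MPA and guanosine, 71.4 with MPA, 77.4 with guanosine and 81.8 in the control. The MPA array was the lowest, at -0.20 from control, and the spread over all 4 arrays was 0.23 in log2 signal. The other 3 PDGFRA probe sets had signals from 10.9 to 34 and no common order.

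GLUL was the marker furthest above control on the MPA array. Its main probe set read 265 with MPA and guanosine, 368 with MPA, 226 with guanosine and 223 in the control. MPA against control was 0.72 there, with 382 of 10951 genes higher. Probe set 11725521_x_at read 836 with MPA and 461 in the control (0.86), and 11744337_a_at read 124 with MPA and 85.7 in the control (0.54). The MPA array was the highest and the control the lowest in all 3, so the GLUL probe sets above the floor shared 1 direction. Against the guanosine array the difference was 0.70 for the main probe set, 0.69 for 11725521_x_at and 0.46 for 11744337_a_at. With guanosine added to MPA, the main probe set differed by -0.48, 11725521_x_at by -0.65 and 11744337_a_at by -0.53.

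GJA1 had a signal of 4582 with MPA and guanosine, 5069 with MPA, 4547 with guanosine and 4177 in the control. The MPA array was again the highest and the control the lowest, but the difference between them was 0.28, and 1945 genes were higher. Its second probe set above the floor, 11716328_a_at, read 73.2 with both, 85.6 with MPA, 65.8 with guanosine and 63.3 in the control, and differed by 0.44 for MPA against control.

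GFAP stayed dim on every array. Its main probe set read 75 with MPA and guanosine, 99.6 with MPA, 77.9 with guanosine and 87.8 in the control. MPA against control differed by 0.18 there, by 0.24 for 11749592_x_at and by -0.08 for 11726993_a_at, so the probe sets were not of 1 direction. The array of both compounds was the lowest in all 3, at -0.13 to -0.26 from control. The 5 GFAP probe sets below the floor had signals between 9.26 and 47.9.

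Among the mesenchymal markers, CHI3L1 has 1 probe set, with a signal of 1192 with MPA and guanosine, 1932 with MPA, 1158 with guanosine and 1201 in the control. Only the MPA array stood apart, and the other 3 lay between 1158 and 1201. MPA was higher than control by 0.69 and than guanosine by 0.74, and 426 genes were further above control. With guanosine added, the level differed by -0.70 from MPA alone. No second probe set exists for a check of this gene.

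VIM was almost level, with a signal of 19584 with MPA and guanosine, 18322 with MPA, 20015 with guanosine and 19783 in the control. Both VIM probe sets were lowest on the MPA array, at -0.11 and -0.14 from control. They ranked 4 and 8 of 49395 probe sets on the control array, whose highest signal was 22552, and whether such bright probe sets can still show a difference was not tested.

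CD44 depended on the probe set that was read. The brightest, 11715916_a_at, which represents the gene in the counts, had a signal of 5938 with MPA and guanosine, 5811 with MPA, 5914 with guanosine and 6286 in the control, and MPA differed from control by -0.11. The dimmest, 11715915_a_at, had a signal of 379 with both, 383 with MPA, 392 with guanosine and 443 in the control. On these 2 probe sets the control was the highest array and the 3 treated ones were alike. On the other 8 the MPA array was the highest, the control second and the 2 arrays with guanosine the lowest. Across those 8, MPA against control ran from 0.17 to 0.45, and 0 of the 10 reached 1.5-fold. All 10 probe sets belong to 1 gene and were read from the same 4 RNA samples, so they are not independent readings.

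The 2 arrays with guanosine were close to each other for CD44. In probe set 11753291_a_at the signal was 722 with MPA and guanosine, 1296 with MPA, 735 with guanosine and 960 in the control. In 11750189_s_at it was 1269 with both, 2103 with MPA, 1233 with guanosine and 1685 in the control. MPA with guanosine was below control in 10 of 10 probe sets, at -0.08 to -0.41, where 46% of all probe sets were. Guanosine was below control in 10 of 10 as well, at -0.09 to -0.45, where 48.4% were, and these comparisons share the control array. Both guanosine arrays lay below both others in 8 of 10 CD44 probe sets, against 20.4% of all probe sets. MPA with guanosine was below MPA alone in 9 of 10, where 46.2% of all probe sets were. The exception was the brightest probe set, which represents the gene, at 0.03. At least 1.5-fold lower were 6 of 10, where 4.29% of all probe sets were, and the lowest was -0.84 for 11753291_a_at. With guanosine present, the MPA difference lay between -0.11 and 0.11 in the 10 probe sets.

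**Figure D3:**
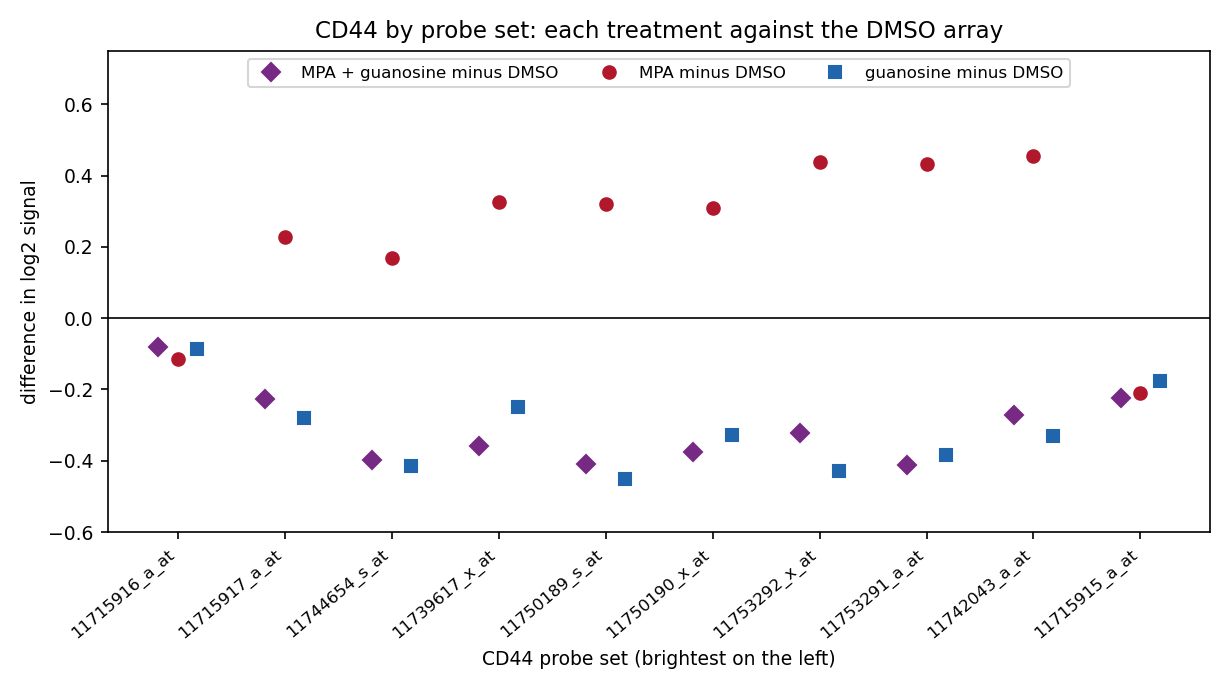
Difference in log2 signal from the DMSO control array for each of the 10 CD44 probe sets, brightest on the left; diamonds are MPA with guanosine, circles MPA and squares guanosine, 1 array each. Circles lie between 0.17 and 0.45 in 8 probe sets and at -0.11 and -0.21 in the outer 2, while diamonds and squares are below 0 in all 10.

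MPA with guanosine against guanosine asks how the markers stood with MPA when the nucleoside was supplied, and shares no array with MPA against control. Of the 10 genes 0 differed by 1.5-fold, as did 0.0189% of 10599 genes, and of 29 probe sets 0 did, against 0.0348% of 22972. The marker genes lay between -0.07 for SOX9 and 0.23 for GLUL, with a median of 0.01 against 0.02 over all genes. NES differed by 0.07, CHI3L1 by 0.04 and SOX4 by -0.05. For GLUL the main probe set gave 0.23, with 225 genes higher, 11725521_x_at gave 0.04 and 11744337_a_at gave -0.07. Subtracting the MPA difference without guanosine from that with guanosine gave 0.70 for NES, 0.60 for SOX9, -0.64 for CHI3L1 and -0.50 for GLUL. It gave -0.54 for SOX4, and the remaining markers lay between -0.27 for GJA1 and 0.31 for PDGFRA. The MPA difference without guanosine is a term of this value, so genes called by it lean to a large one. With 4 arrays in all, that double difference has no error estimate either.

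**Figure D4:**
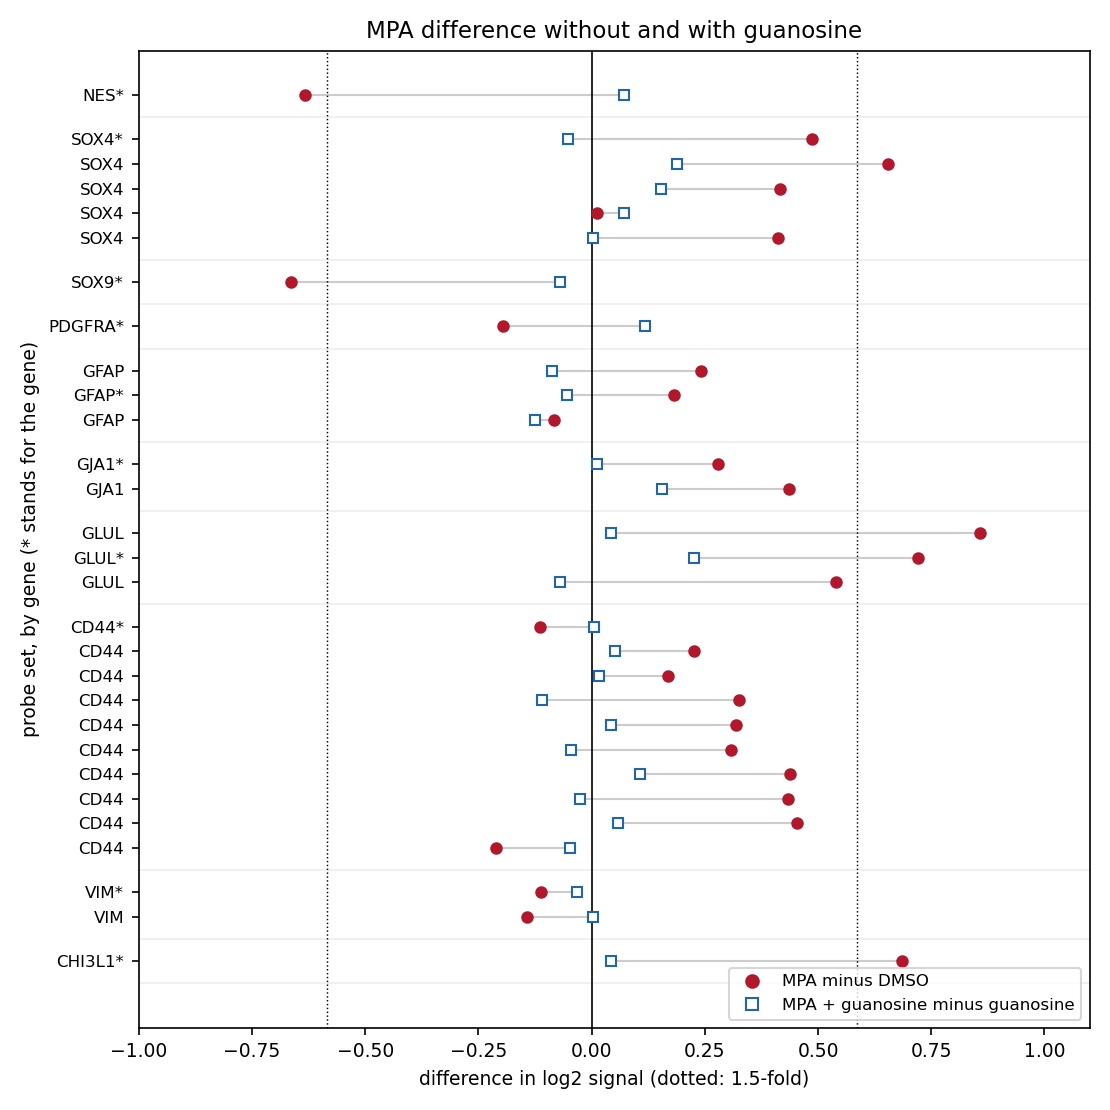
Difference in log2 signal for each of the 29 probe sets above the floor, grouped by gene; filled circles are MPA minus DMSO and open squares are MPA with guanosine minus guanosine, 1 array each, and dotted lines mark 1.5-fold. Circles pass the lines for NES, SOX9, CHI3L1, 1 SOX4 and 2 GLUL probe sets, whereas all squares lie between -0.12 and 0.23.

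MPA with guanosine against MPA shares the MPA array with MPA against control, so the 2 sets of values lean in opposite directions and are given side by side only. Of the 10 genes, 2 differed by at least 1.5-fold, SOX9 higher and CHI3L1 lower, where 13.6% of 10956 genes did, 8.82% higher and 4.77% lower. By probe set 9 of 29 did, against 13.5% of 23718, with 1 higher and 8 lower, against 9.17% and 4.29%. The 8 were 6 probe sets of CD44, 1 of GLUL and that of CHI3L1. The median over the genes was -0.05, and -0.27 with probe sets replaced by their median, a setting in which CD44 differed by -0.71.

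Guanosine against control and MPA with guanosine against control share the control array and gave 0 of 10 genes past 1.5-fold, where 0.497% of 10663 genes passed it with guanosine and 0.637% of 10672 with both. The marker medians were -0.02 with guanosine and -0.01 with both. SOX4 was the highest marker in both, at 0.41 with guanosine, with 163 genes higher, and at 0.35 with both. The lowest with guanosine was NES at -0.20, and with both it was GFAP at -0.23. The 1 probe set of 29 past 1.5-fold with both compounds was the SOX4 probe set named above, where 0.632% of 23101 probe sets passed.

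The genes whose profiles over the 4 arrays were nearest to the 4 markers that ranged over at least 1.5-fold were found among 11009 genes above the floor on at least 1 array by the Euclidean distance between centred log2 values. For NES they were POP7, ARPC5L and CERK, at distances of 0.029 to 0.034. For SOX9 they were SFXN1, ERI1 and GNB4, at 0.020 to 0.030, and for CHI3L1 they were LSR, BTBD10 and CCR1, each at 0.031. For GLUL they were SNHG28, ATP6V0D2 and MIOX, but these passed the floor only on the MPA array or on the 2 MPA arrays, so their distances rest on values below it and are not given. SFXN1, for example, had a signal of 216 with MPA and guanosine, 144 with MPA, 229 with guanosine and 229 in the control. With 4 points per profile, such matches describe these arrays only.

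The lists of further genes, with the 10 markers left out, were compared over genes that reached the floor on 1 or both of the arrays compared, a looser rule than all 4. The mesenchymal glioma list had 32 of 33 measured genes above the floor, and 25 of the 32 were higher with MPA than in the control, while 50.3% of all genes were. Its median was 0.14. At least 1.5-fold higher were 5 of the 32 genes, where 5.41% of all genes were. They were the AP-1 factor FOSL2 (0.98), the matricellular gene CCN2 (0.87), TRADD (0.62) and the transcription factors STAT3 (0.60) and CEBPD (0.59). At least 1.5-fold lower were 2 of the 32, where 7.52% of all genes were. They were the urokinase receptor gene PLAUR (-0.64) and the repressor of epithelial genes ZEB1 (-0.63). FOSL2 had a signal of 688 with MPA and guanosine, 960 with MPA, 670 with guanosine and 485 in the control, so the control was the lowest array, as for SOX4. The control was also the lowest for TRADD, at 506 with both, 693 with MPA, 518 with guanosine and 452 in the control. So it was for CEBPD, at 341 with both, 360 with MPA, 305 with guanosine and 239 in the control. The differences of these genes share the single control array, and the part of that array in them was not tested. CCN2 had 336 with both, 693 with MPA, 312 with guanosine and 378 in the control, with only the MPA array high. With guanosine present the MPA difference of the list had a median of 0.05, against 0.02 over all genes. There 23 of 32 genes were higher and 0 of 32 passed 1.5-fold, where 0.0189% of all genes did. Against control, 24 of 32 genes were higher with both compounds, at a median of 0.06 against 0.02 over all genes. With guanosine 19 of 32 were, at a median of 0.03 against -0.0009. These comparisons share the control array with MPA against control, and the lean to higher values was not particular to MPA alone.

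The neural stem and proneural list had 13 of 25 measured genes above the floor on some array and 9 on all 4. Of the 13, 7 were higher with MPA than in the control, against 50.3% of all genes, and 6 lower, with a median of 0.05. The surface protein gene CD24 was at least 2.69-fold higher, at 170 with MPA and 60.5 in the control, which is below the floor. The inhibitor of differentiation ID3 differed by 0.69 and the receptor gene NOTCH1 by 0.68. At least 1.5-fold lower were 0 of the 13, where 7.52% of all genes were. FUT4 was at 56.1 with MPA, below the floor, and at 75.9 in the control, which is at least 1.2-fold lower with MPA. The astrocyte list had 9 of 18 genes above the floor on some array and 8 on all 4. Of the 9, 5 were higher and 4 lower with MPA, where 50.3% of all genes were higher. The median was 0.05, and 0 of the 9 passed 1.5-fold, where 12.9% of all genes did. Its highest were the lipid carrier gene APOE (0.44) and CLU (0.37), and the nuclear factor I gene NFIB differed by -0.42. Its relative NFIA was at 47.2 with MPA, below the floor, and at 67.3 in the control, at least 1.07-fold lower with MPA.

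**Figure D5:**
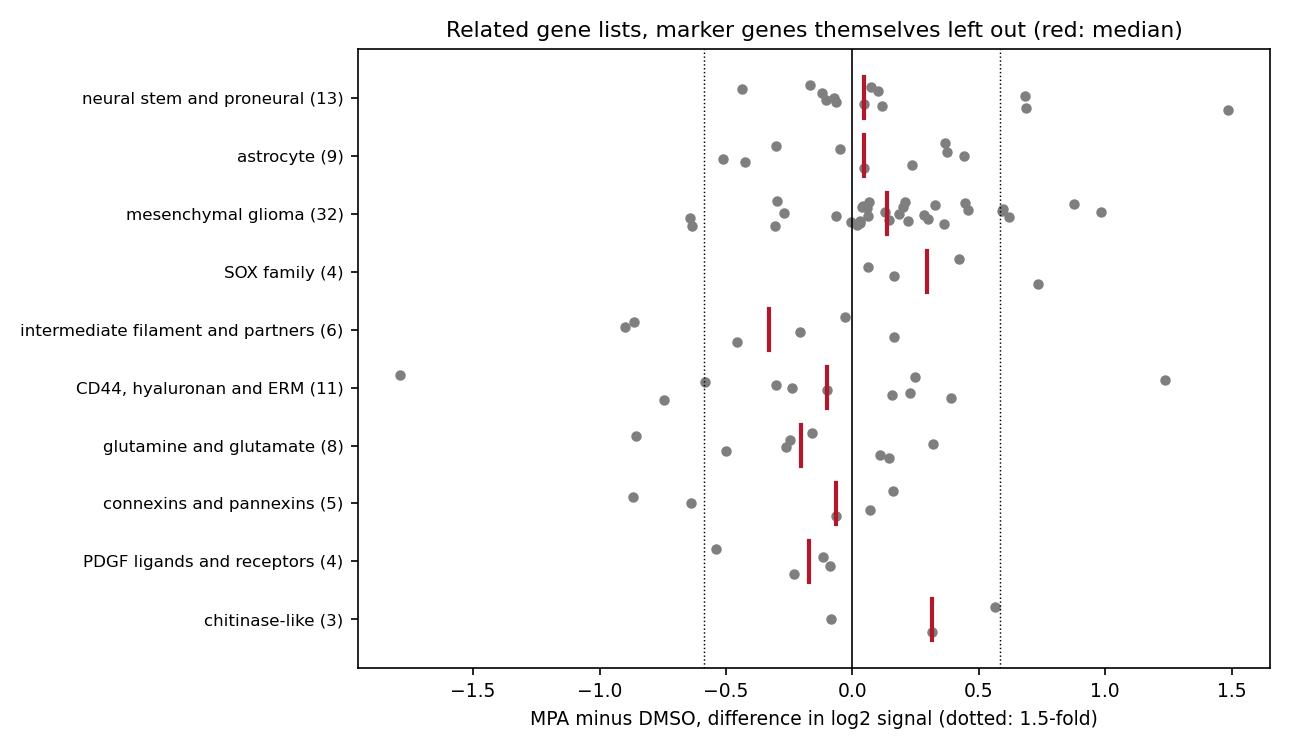
Difference in log2 signal for MPA minus DMSO of each gene above the floor on at least 1 of the 2 arrays in 10 related lists, 1 array per condition, with the number of genes in brackets, red bars for medians and dotted lines at 1.5-fold. The mesenchymal list has most points above 0, and the filament list has a median of -0.33 over 6 genes, 2 of which are below the floor on 1 of the 2 arrays.

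Partners of the individual markers were of both signs. Among 6 genes of intermediate filaments, the lamina and their partners, 4 of them above the floor on all arrays, 1 was higher with MPA than in the control, against 50.3% of all genes. The lamin genes LMNB2 and LMNB1 differed by -0.90 and -0.86. The keratin gene KRT8 was at 69.8 with MPA and at 62.3 in the control, just below the floor. Of the hyaluronan and ezrin family list, the hyaluronan-degrading protein gene CEMIP was higher by 1.24 and the ERM-related tumour suppressor NF2 differed by -0.74. The synthase HAS2 was at least 1.27-fold lower, at 23.2 with MPA, below the floor, and 80.2 in the control. Beside GLUL, the glutamine transporter gene SLC1A5 differed by -0.86 and the glutamate transporter gene SLC1A1 by -0.50, with a list median of -0.20 over 8 genes. Of the 8, 3 were higher, against 50.3% of all genes, and the highest was SLC38A2 at 0.32. Beside GJA1, the connexin gene GJC1 differed by -0.87 and the pannexin gene PANX1 by -0.64, with a list median of -0.06 over 5 genes. Of the 5, 2 were higher, GJB2 by 0.16 and PANX2 by 0.07, against 50.3% of all genes. Beside PDGFRA, the PDGF ligand genes PDGFA and PDGFC differed by -0.54 and -0.12, the receptor gene PDGFRB by -0.09 and the VEGF receptor gene KDR by -0.23, so 0 of these 4 were higher with MPA, against 50.3% of all genes. Beside CHI3L1, the related gene CHI3L2 differed by 0.56, CTBS by 0.32 and CHID1 by -0.08. In the SOX family without the markers SOX4 and SOX9, SOX15 differed by 0.73 and SOX10 by 0.42. There 4 of 4 genes above the floor were higher, against 50.3% of all genes. The 2 SOX markers left out were of both signs, SOX4 at 0.49 and SOX9 at -0.66.

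Readings of the arrays themselves stand beside these results. The median signal was 61.8 with MPA and guanosine, 64.5 with MPA, 62.5 with guanosine and 63 in the control. As a reading of RNA integrity, the 3' probes of ACTB exceeded the 5' probes by 1.72 with MPA and by 1.82 in the control on the log2 scale, and those of GAPDH by 0.09 with MPA and 0.13 in the control. The 12 probe sets of spiked-in poly-A transcripts had a median difference from control of 0.27 with both compounds, -0.29 with MPA (12 of 12 lower) and 0.22 with guanosine. Markers of other cell types were counted as above the floor when they reached it on some array. Of 10 measured leukocyte markers 3 did, with a summed signal over the list of 2263 with MPA and 1586 in the control. CD68, a lysosomal protein gene of macrophages, carried most of that sum, at 1871 with MPA and 1200 in the control (0.64). CSF1R was at 141 with MPA and 134 in the control, and TMEM119 at 80.7 with MPA and 91.2 in the control (-0.18). PTPRC, the leukocyte common antigen gene, was below the floor at 11 with MPA and 11.7 in the control. Endothelial and pericyte markers (4 of 9) summed to 568 with MPA and 573 in the control, but their members differed in both directions. ERG was at 123 with MPA and 43.5 in the control, below the floor, so at least 1.96-fold higher with MPA. CSPG4 was at 160 with MPA and 258 in the control (-0.68), VWF was at 111 with MPA and 93.6 in the control, and PECAM1 was below the floor, at 9.12 with MPA and 8.24 in the control. Fibroblast markers (4 of 8) summed to 2890 with MPA and 2264 in the control. Of the 4, 2 were higher and 2 lower, from 0.41 for COL1A2 to -0.09 for PDGFRB, where 50.3% of all genes were higher. Neuron and oligodendrocyte markers (6 of 10, and 4 on all arrays) summed to 6127 with MPA and 5321 in the control. Of the 6, 5 were higher and 1 lower, where 50.3% of all genes were higher. Among the 5, CNP differed by 0.03 and STMN2 by 0.09. RBFOX3 was above the floor only on the MPA array, at 67.3 against 55.4 in the control. SNAP25 was at 1867 with MPA and 1144 in the control (0.71), and GAD1 differed by -0.06. Epithelial markers (4 of 6, and 1 on all arrays) summed to 434 with MPA and 373 in the control. EPCAM was above the floor only on the MPA array, at 102 against 55.5 in the control. KRT18 was at 57.3 with MPA, below the floor, and at 78.6 in the control. All these sums include genes below the floor. The part of these readings in the marker differences was not tested.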

How the data were processed

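Total RNA of U87MG cells was labelled with biotin and hybridised to PrimeView arrays, 1 for each of 4 conditions, and each array took its condition from its title. The authors deposited a linear intensity for each probe set, made by RMA per the labels' descriptions; software, settings and array annotation are not stated there. RMA includes quantile normalisation, so a change in total mRNA per cell would not show. From these, log2 values and differences between 2 arrays were computed with Python 3.11.15 and pandas 2.3.3.

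Of 49395 probe sets, 102 controls were left out of genes, 44988 others had 1 symbol, 1832 had several and 2473 had none in the platform's table, and all 46 marker probe sets kept their symbol when checked by Entrez ID against RefSeq. The 10 genes and 15 related lists were chosen with earlier results of these data known. All markers were named; of each list the highest and lowest genes and up to 2 more of each could be named, and 3 nearest profiles for each marker that ranged over at least 1.5-fold. Further genes named to check the cell type (SOX2, PROM1, S100B, AQP4, NOTCH2, SLC1A3, PTPRC and PECAM1) were chosen after their values were seen. With 1 array per condition there is no test and no p-value, and the precision is limited by how few arrays there are. Counting was tested on simulated data. Alternatives were 2 other floors, other ways to represent a gene, cyclic loess (limma 3.58.1, 3 iterations), median centring, a pseudocount of 32 and, for MPA, the guanosine array as reference.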

Additional observations from a re-analysis of the deposited data

Results flagged for a closer look

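PDGFRA, a receptor gene of glial progenitors, had MPA differences of opposite sign without and with guanosine, each larger than the SD over genes between the 2 closest arrays (0.0979 in log2 signal). MPA differed from control by -0.20 and MPA with guanosine differed from guanosine by 0.12, at signals between 71.4 and 84 on the 4 arrays. That SD is a spread over genes and no error estimate for a single gene. For MPA against control the SD over genes was 0.42, and 3108 of 10951 genes were lower than PDGFRA. With guanosine present, 1276 of 10599 genes were higher than PDGFRA. These values are of the main probe set. The other 3, all below the floor, differed without and with guanosine by -0.05 and -0.01, by -0.09 and 0.28, and by 0.12 and -0.22. The share of all genes with such a pair of differences was not counted. With 1 array per condition the difference between the 2 values of the main PDGFRA probe set was not tested.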

How the results depend on the processing

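No paired analysis was possible because each condition has 1 array and the results come from no test. For MPA against control, the count of 4 markers at least 1.5-fold different became 1 with probe sets replaced by their median (6 genes above the floor) and 2 with a pseudocount of 32, under which NES differed by -0.54 and SOX9 by -0.58. The count was 3 with the floor at the 75th percentile and when the guanosine array replaced the control, and 4 under the other settings tried. The median of 0.04 became 0.28 with the floor at the 75th percentile (7 genes), 0.21 with the median of probe sets and 0.17 with the mean of probe sets above the floor. For MPA with guanosine against MPA, the count of 2 became 1 with cyclic loess, 1 with the pseudocount and 3 with _x_at probe sets treated like the others, where GLUL differed by -0.65. With the median of probe sets it was again 2, but these were CD44 and CHI3L1, both lower, SOX9 being below the floor, and the median of -0.05 became -0.27. That median was 0.01 with median centring. The counts of 0 in the other 3 comparisons were 0 under every setting tried. Of 374 values for single markers under these settings, 0 changed sign from a called difference, 7 fell short of 1.5-fold, 2 passed it newly and 25 moved otherwise by more than 0.0979. A marker that fell below the floor under a setting has no value there and is not among the 374. For MPA against control this held for SOX9 with the median of probe sets and for NES with the floor at the 75th percentile. GFAP and PDGFRA lie so close to the floor that their signal over background limits what can be read.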
